A study of Mus musculus with 4 samples.

Results

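The 37 genes described here code for the working parts of the lysosome: membrane glycoproteins, proteases, glycosidases, lipid-handling proteins, ion channels and the proton pump. They were taken from a fixed list of symbols. This list and the further gene lists below were chosen with earlier results of these data known. All 37 were measured, among 19938 genes in all, and each was represented by 1 probe set (called a probe below). Gene expression was measured on 4 Affymetrix arrays, 1 per group, in macrophages of wild type C57BL/6 mice aged 8 to 12 weeks. The cells were collected from the peritoneal cavity 3 days after an injection of thioglycolic acid, which draws macrophages there, and selected by adherence. The control group is labelled as kept with bovine serum albumin (BSA) alone, although the protocol text describes its vehicle as ethanol and KOH. The other groups received 1 of 3 fatty acids bound to BSA at 500 µM. Palmitic acid is saturated, with 16 carbons, oleic acid has 18 carbons and 1 double bond, and linoleic acid has 18 carbons and 2. Incubation lasted 6 h in every group. Each array carried RNA pooled from 3 samples, and the labels do not say whether these came from separate mice. With 1 array per group there is no spread between samples, so that no test, p-value or interval exists for any difference given here.

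Lysosomes are acidic organelles whose enzymes break down proteins, glycans, nucleic acids and lipids delivered by phagocytosis, endocytosis and autophagy. The acid is made by a rotary proton pump, the V-ATPase, whose V1 sector splits ATP in the cytosol and whose V0 sector passes protons through the membrane. Many lysosomal genes share a short promoter sequence bound by the transcription factors TFEB, TFE3 and MITF. Macrophages depend on this organelle to digest particles and to free the fatty acids and cholesterol of the lipoproteins they take up.

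That shared sequence was looked for in the 300 bases around each gene's start, from 250 before to 50 after it (RefSeq, GRCm38.p6). Windows were found for 31 of the 37 genes, 3 of them with 2 windows. Atp6v0d2, Atp6v1b2, Atp6v1h, Ctsb, Ctsh and Npc1 were not matched. The palindrome TCACGTGA stood in the windows of 7 of these 31 genes (22.6%), and in those of 1.12% of all 27025 genes with a window. Its core CACGTG, which every TCACGTGA also holds, stood in 12 of 31 (38.7%), beside 8.09% of all genes. The longer form, TCACGTGA with a G before it and a C after it, was in 0 of 31, beside 0.370% of all genes. The relative TCATGTGA, on either strand, was in 5 of 31 (16.1%), beside 1.15%. TCATGTGA with a G before it and a C after it was in 0 of 31, beside 0.189%. The stretches below are those of the 7 genes with TCACGTGA and of Lamp1. CACGTG was also in the windows of Ctsf, Ctsl, Gaa and Glb1, which are not shown. TCATGTGA was in those of Gla, Ctss, Grn, Ppt1 and Tpp1, of which only Gla is shown. Capitals mark TCACGTGA in Gla, Atp6v1a, Ctsd, Mcoln1, Atp6v0d1 and Ctsa, and CACGTG in Lamp1 and Clcn7. The Gla stretch also holds a TCATGTGA and the Mcoln1 stretch a further CACGTG, both left in lower case. All are written 5′ to 3′ on the gene's strand.
Gla: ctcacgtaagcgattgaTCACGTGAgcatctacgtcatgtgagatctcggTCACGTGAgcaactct
Atp6v1a: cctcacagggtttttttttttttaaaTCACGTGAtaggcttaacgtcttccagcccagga
Ctsd: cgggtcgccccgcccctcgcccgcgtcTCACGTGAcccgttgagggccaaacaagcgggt
Mcoln1: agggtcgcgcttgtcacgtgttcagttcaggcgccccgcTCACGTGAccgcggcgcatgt
Lamp1: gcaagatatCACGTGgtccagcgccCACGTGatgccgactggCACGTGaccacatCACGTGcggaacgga
Atp6v0d1: taagagccaggccctactgcggTCACGTGA
Ctsa: tgTCACGTGAtgcagatgcTCACGTGAcca
Clcn7: tCACGTGggcaccgatgatagatCACGTGa

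The Gla stretch lies at chrX:134601185-134601250 on the minus strand, the Atp6v1a stretch at chr16:44139358-44139417 (minus) and the Ctsd stretch at chr7:142387894-142387953 (minus). The Mcoln1 stretch lies at chr8:3500434-3500493 (plus), the Lamp1 stretch at chr8:13159091-13159160 (plus) and the Atp6v0d1 stretch at chr8:105566061-105566090 (minus). The Ctsa stretch lies at chr2:164833758-164833787 (plus) and the Clcn7 stretch at chr17:25133375-25133404 (plus). Lamp1 held 4 copies of CACGTG in its last 70 bases before the start, while Ctsa and Gla each held 2 copies of TCACGTGA. The copies in Ctsa and Clcn7 lay on both sides of the start, and 1 of those in Clcn7 is also a TCACGTGA. A match of these letters is a description and not a measured binding site.

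Across the 4 arrays the lysosomal genes varied less than kept genes in general, most of which were dimmer. The median range from the lowest to the highest array was 0.11 on the log2 scale for the 37 genes, beside 0.22 for the 11174 genes bright enough to be kept (highest value at or above log2 7.09, the median of all values). The ranges ran from 0.01 to 0.54. The range reached 1.2-fold (log2 0.26) in 5 of 37 genes, beside 38.6% of kept genes, and 1.5-fold (log2 0.58) in 0 of 37, beside 5.99%. Lysosomal genes were bright: 14 of them had a mean at or above log2 13. Of the kept genes 7773 had a mean between log2 7 and 10, where 2 of the 37 lie. Bright genes varied less in general, and the 595 kept genes between log2 11.88 and 13.15, the middle of the lysosomal genes, had a median range of 0.16. That band leaves out the brightest lysosomal genes, and the counts of ranges were not set against genes of like brightness. All 37 passed the brightness filter, Ctsf as the dimmest at log2 7.35 in the control array.

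The cultures carried macrophage markers throughout. Of 12 macrophage markers all were kept, from Lyz2 at log2 13.92 in the control array to Marco at 7.48. The lists of B cell, T cell, neutrophil, eosinophil, mast cell and dendritic cell markers had 1 kept gene each. Of the 10 mesothelial and fibroblast markers 8 were kept, with Dcn at log2 10.78 in the control array and Krt19 at 6.53. Fewer cells of a type and less RNA per cell cannot be told apart in pooled cultures.

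**Figure D1:**
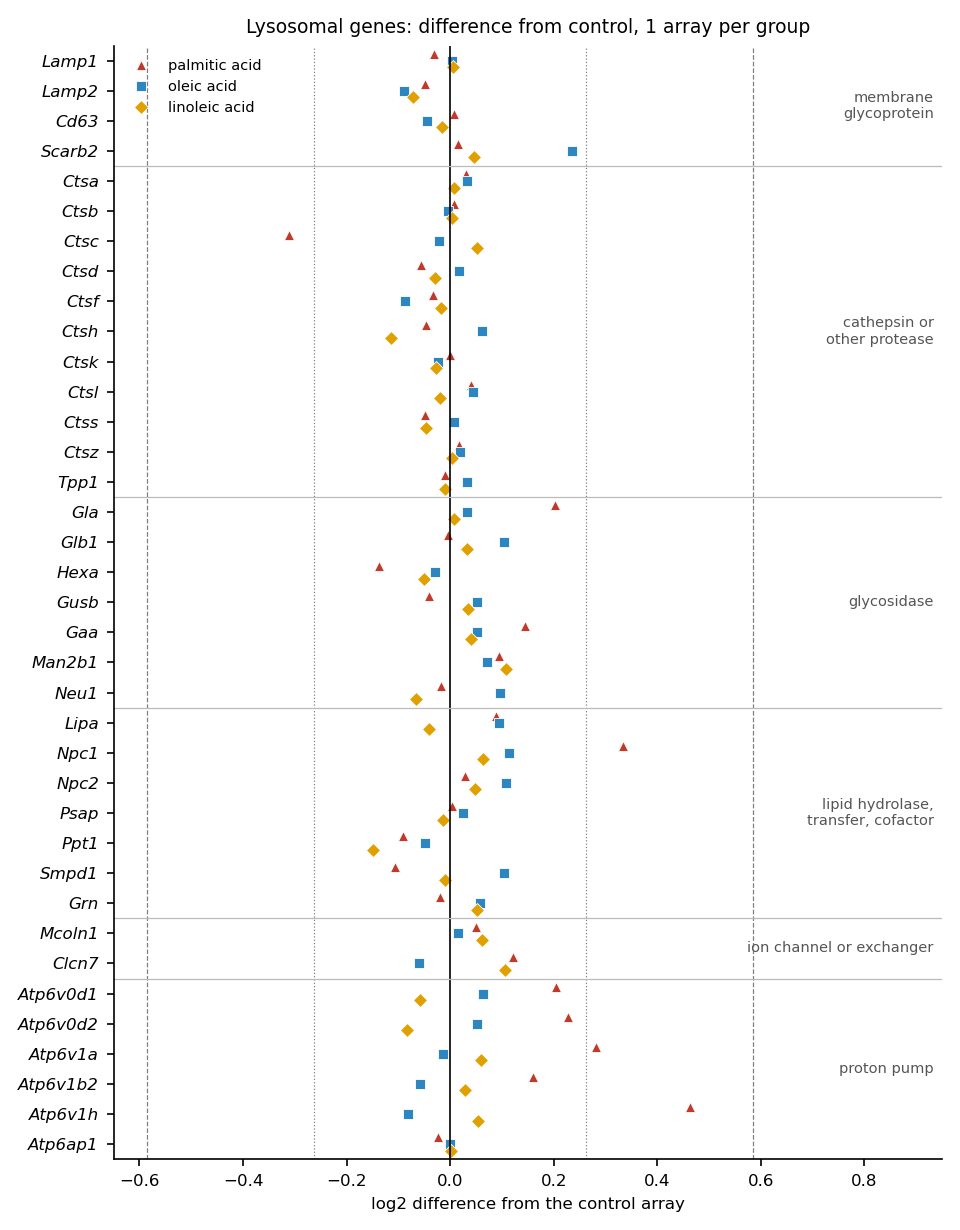
Difference in log2 value from the control array for the 37 lysosomal genes (rows, grouped by role) with palmitic acid (triangles), oleic acid (squares) and linoleic acid (diamonds), 1 array each; dotted and dashed lines mark 1.2-fold and 1.5-fold. Most points lie near 0, and the palmitic acid points of 5 of the 6 proton pump genes and of Npc1 and Gla lie to the right, with Ctsc to the left.

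The first comparison asked how the level of the lysosomal genes differed after a saturated fatty acid. The proton pump stood out among the roles: 5 of its 6 genes were higher with palmitic acid, with a median difference of 0.22, beside 0.00059 for all kept genes and -0.00093 for the 31 other lysosomal genes. The cholesterol exporter gene Npc1 was also higher, and the protease gene Ctsc was lower. Among all 37 genes, 3 were at least 1.2-fold higher (12.1% of kept genes were, and 7.23% of the 595 of like brightness) and 1 at least 1.2-fold lower (8.72% and 6.05%). None of the 37 was 1.5-fold higher or lower, beside 2.17% and 1.41% of kept genes and 1.18% and 0.84% of those of like brightness. The median over the 37 genes was 0.0069, with 20 above 0 and 17 below, and 50.1% of kept genes were above 0. As a whole the lysosomal genes thus did not exceed the background in this comparison.

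Atp6v1h codes for the regulatory H subunit that couples the V1 sector to V0. Its log2 values were 11.45 in the control array and 11.92, 11.37 and 11.51 with palmitic, oleic and linoleic acid. The palmitic acid array was the highest, by 0.46 over the control, a 1.38-fold difference that 6.34% of kept genes exceeded in size. Atp6v1a codes for the catalytic A subunit, which splits ATP. It was at 12.52 in the control array and 12.80, 12.50 and 12.58 with palmitic, oleic and linoleic acid. Palmitic acid was thus 1.22-fold above the control, a difference that 18.6% of kept genes exceeded in size. Atp6v1b2, which codes for the B subunit beside the A subunit, was at 13.01, 13.17, 12.95 and 13.04 in the same order of arrays. Its palmitic acid value was the highest, by 0.16 over the control, short of 1.2-fold.

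The paralogs Atp6v0d1 and Atp6v0d2 code for alternative forms of the stalk subunit d of V0, the second known from osteoclasts and macrophages. Atp6v0d1 was at log2 11.83 in the control array and 12.04, 11.90 and 11.77 with palmitic, oleic and linoleic acid. Atp6v0d2 was at 13.09, 13.32, 13.15 and 13.01 in that order. Both had the same order of arrays, palmitic acid highest and linoleic acid lowest, with differences of 0.20 and 0.23 between palmitic acid and the control. Atp6ap1, which codes for an accessory subunit, lay within 0.03 on all arrays, at 12.76 in the control and 12.74 with palmitic acid.

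**Figure D2:**
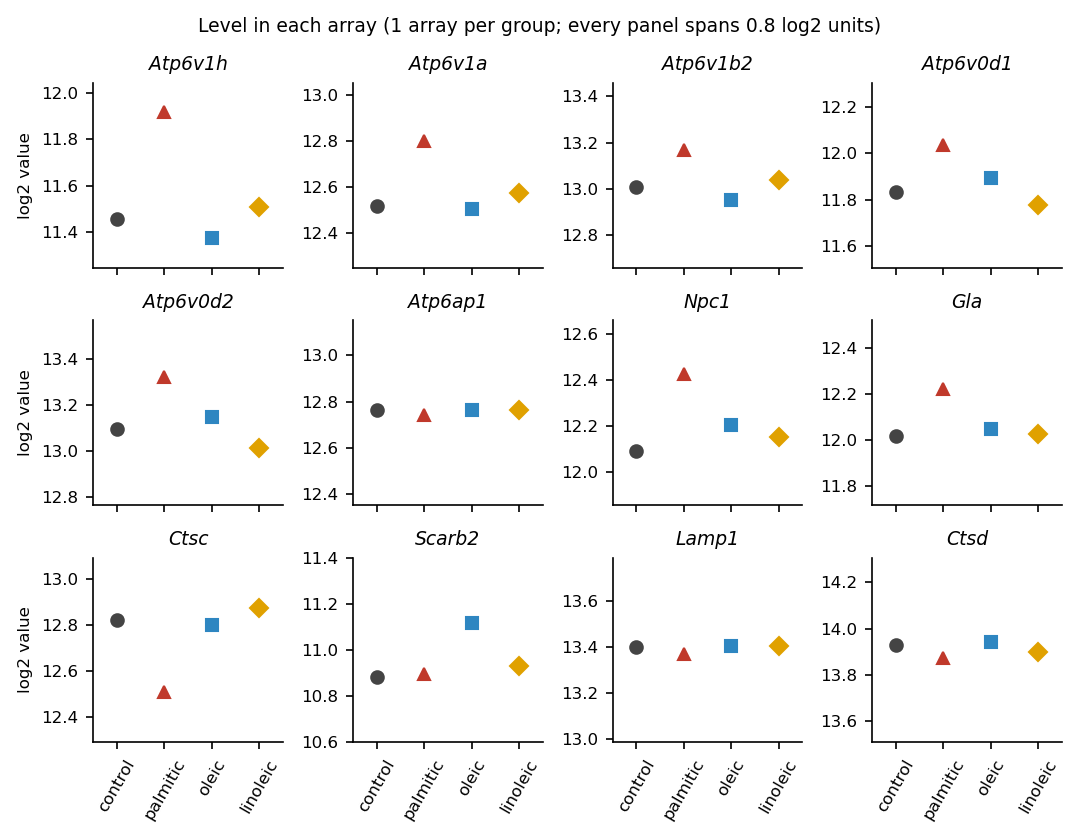
Log2 value of 12 lysosomal genes in the control (circle), palmitic acid (triangle), oleic acid (square) and linoleic acid (diamond) arrays, 1 array per group, each panel spanning 0.8 log2 units. The palmitic acid array is the highest for 5 proton pump genes, Npc1 and Gla and the lowest for Ctsc, the oleic acid array is the highest for Scarb2, and Atp6ap1, Lamp1 and Ctsd are level.

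The other subunits of the pump were read from a list of 13 genes, of which 12 were measured. With palmitic acid 8 of these 12 were above the control, beside 50.1% of kept genes, with a median of 0.14. Beside 12.1% and 8.72% of kept genes, 1 of the 12 was at least 1.2-fold higher and 0 lower. This was Atp6v1c1, which codes for the stalk subunit C of V1, at log2 11.55 in the control array and 11.89, 11.45 and 11.54 with palmitic, oleic and linoleic acid. Atp6v1d followed with a difference of 0.24. The lowest differences were those of Atp6v0e2 (-0.10) and Atp6v1e1 (-0.03). Together with the 6 genes above, 18 genes of the pump had a median of 0.16, -0.0041 and 0.01 with palmitic, oleic and linoleic acid in that order. Centring each array on its own median shifts every gene of a comparison by a constant, and with it the last 2 medians turn to 0.02 and -0.02 while those of all kept genes go from 0.01 to 0.04 and from 0.04 to 0.0063. The palmitic acid median was between 0.16 and 0.17 under all 3 other scalings tried.

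Divided by sector, palmitic acid was at least 1.2-fold above the control for 3 of the 8 V1 genes, beside 12.1% of kept genes. At a mean between log2 10 and 12, where Atp6v1h and Atp6v1c1 lie, 15.7% of kept genes were so. Between log2 12 and 13, where Atp6v1a lies, 7.19% were. The V1 median was 0.20. Of the 8 V0 genes 0 were at least 1.2-fold above the control with palmitic acid, with a median of 0.15. Oleic acid gave V1 a median of -0.06, with 7 of 8 genes below the control, and V0 a median of 0.06, with 6 of 8 above, beside 55.3% of kept genes above. Among the V0 genes, Atp6v0a1 and Tcirg1, which code for forms of the proton channel subunit a, were both higher by 0.20 with oleic acid, and by 0.18 and 0.17 with palmitic acid.

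**Figure D3:**
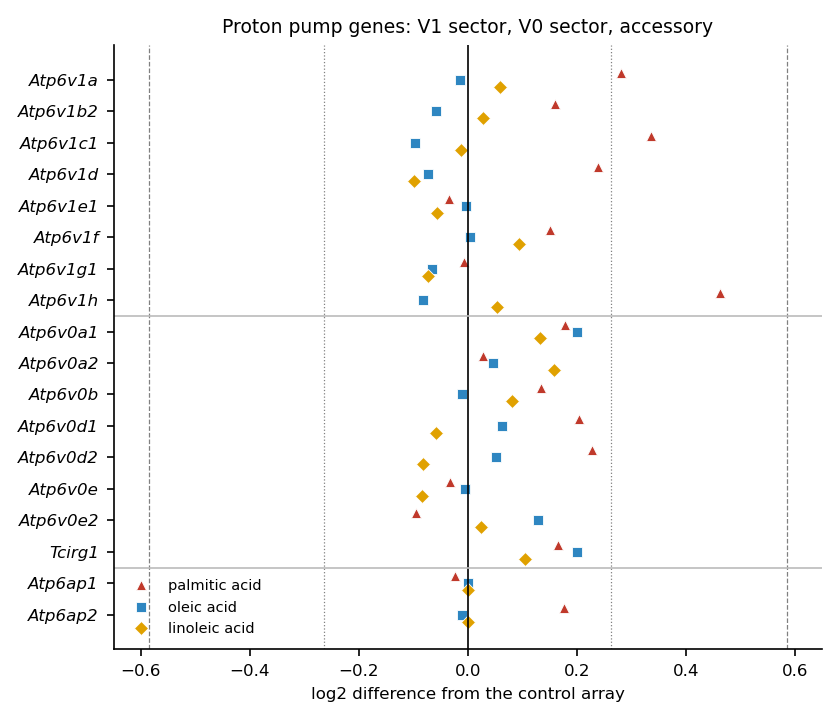
Difference in log2 value from the control array for the 18 measured proton pump genes (rows: V1 sector, V0 sector, accessory subunits), with palmitic acid (triangles), oleic acid (squares) and linoleic acid (diamonds), 1 array each; dotted and dashed lines mark 1.2-fold and 1.5-fold. Palmitic acid lies beyond 1.2-fold for Atp6v1h, Atp6v1c1 and Atp6v1a, and oleic and linoleic acid for none.

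Among the genes of lipid handling, Npc1 codes for the membrane protein that exports cholesterol from the lysosome. It was at log2 12.09 in the control array and 12.43, 12.21 and 12.16 with palmitic, oleic and linoleic acid. All 3 acids lay above the control, palmitic acid by 0.33 or 1.26-fold, a difference that 13.4% of kept genes exceeded in size. Npc2, which codes for the soluble protein that hands cholesterol to NPC1, differed from the control by 0.03 with palmitic and 0.11 with oleic acid. Lipa, which codes for the acid lipase that hydrolyses triglycerides and cholesteryl esters, was at 13.15 in the control array and 13.24, 13.24 and 13.11 with palmitic, oleic and linoleic acid. Smpd1, which codes for acid sphingomyelinase, lay at -0.11 with palmitic and 0.10 with oleic acid. Ppt1, which codes for the thioesterase that removes palmitate from proteins, was below the control on all 3 acid arrays, at -0.09, -0.05 and -0.15. Psap, the precursor of the saposins that assist lipid hydrolysis, and Grn, which codes for progranulin, lay within 0.06 of the control throughout.

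The 11 protease genes had a palmitic acid median of -0.01, with 4 above 0 and 7 below. Ctsc, which codes for the dipeptidyl peptidase that activates granule serine proteases, was at log2 12.82 in the control array and 12.51, 12.80 and 12.87 with palmitic, oleic and linoleic acid. Only its palmitic acid value stood apart, by -0.31, a 1.24-fold difference that 15.2% of kept genes exceeded in size. For the other 10 proteases the palmitic acid differences ran between -0.06 (Ctsd) and 0.04 (Ctsl). Ctsd, the main aspartic protease, was at 13.93, 13.87, 13.94 and 13.90 in the control, palmitic, oleic and linoleic acid arrays, and Ctsl, a cysteine protease, at 13.42, 13.47, 13.47 and 13.41. Ctsb, Ctss and Ctsz, further cysteine proteases, lay within 0.05 of the control on every array, as did Ctsa, which protects the enzymes made by Glb1 and Neu1. Ctsk, a collagen-degrading protease, and Tpp1, a tripeptidyl peptidase, were also within 0.05, while Ctsh and Ctsf reached -0.11 (linoleic acid) and -0.09 (oleic acid).

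Among the 7 glycosidase genes, Gla codes for the alpha-galactosidase that trims glycolipids. It was at log2 12.02 in the control array and 12.22, 12.05 and 12.02 with palmitic, oleic and linoleic acid, so that palmitic acid was the highest by 0.20, short of 1.2-fold. Gaa, which codes for the enzyme that breaks down glycogen, followed with 0.15. Hexa, which codes for a subunit of the hexosaminidase that degrades gangliosides, was the lowest, at -0.14. Glb1, Gusb and Neu1, which code for a galactosidase, a glucuronidase and a sialidase, lay between -0.04 and -0.0036, and Man2b1 at 0.09.

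Membrane and channel genes showed little difference with palmitic acid. Lamp1, which codes for an abundant membrane glycoprotein, was at log2 13.40 in the control array and 13.37, 13.41 and 13.41 with palmitic, oleic and linoleic acid. Lamp2, a relative that also serves autophagy, lay at -0.05 and Cd63 at 0.0072. Mcoln1, which codes for the calcium channel TRPML1, was at 11.90, 11.94, 11.91 and 11.96 in the same order of arrays. Clcn7, which codes for a chloride-proton exchanger, lay at 0.12, -0.06 and 0.11 with palmitic, oleic and linoleic acid in that order.

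Beside these palmitic acid differences, 9 of the 10 mesothelial and fibroblast markers were below the control in that array, among them all 8 kept ones. Of kept genes 50.1% were above it. The largest marker differences were those of Pdgfrb (-1.29) and Pdgfra (-0.86), named after their values were seen. The other kept ones ran from -0.28 to -0.15. With oleic acid Pdgfrb lay at -0.71 and Pdgfra at -0.06. The summed level of the 10 markers on the linear scale was 5624 in the control array and 4227, 5136 and 5978 with palmitic, oleic and linoleic acid. The summed level of the 12 macrophage markers was 75036, 72006, 77849 and 75184. With palmitic acid 8 of these 12 were below the control. Their median difference was -0.10, with single differences from -0.66 to 0.51. The part of these shifts in the lysosomal differences was not tested.

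The 7 genes whose windows hold TCACGTGA had a palmitic acid median of 0.12, with 6 above the control and Ctsd below. Of all kept genes 50.1% were above the control. The 24 genes whose windows lack it had a median of -0.01, with 9 above. Among all kept genes with a window, 204 held the sequence and had a median of 0.09, with 141 (69.1%) above the control. The 8730 that did not had a median of 0.0016, with 50.2% above. With oleic acid the medians of the 7 and the 24 lysosomal genes were 0.02 and 0.03, and with linoleic acid 0.0079 and -0.0095. Those of the 204 and the 8730 kept genes were 0.0022 and 0.02 with oleic acid, and 0.06 and 0.04 with linoleic acid. Of the proton pump genes only Atp6v0d1, Atp6v1a and Atp6ap1 have a window, so that the split cannot be read for the others.

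The comparison with oleic acid put the question for a fatty acid with 1 double bond. The lysosomal genes lay close to the control and slightly above it: 25 of 37 were above 0, beside 55.3% of kept genes, with a median of 0.02, beside 0.01 for all kept genes. None of the 37 was at least 1.2-fold higher or lower, beside 4.02% and 2.53% of kept genes and 2.18% and 2.02% of those of like brightness. None was so by 1.5-fold, beside 0.376% and 0.34% of kept genes and 0.336% and 0.168% of those of like brightness. The lipid-handling genes had a median of 0.09, with 6 of 7 above the control, and the glycosidases of 0.05, also with 6 of 7 above. The proteases had a median of 0.02 and the membrane glycoproteins of -0.02.

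Scarb2, which codes for LIMP-2, the carrier of glucocerebrosidase to the lysosome, had the largest oleic acid difference of the 37 genes. It was at log2 10.88 in the control array and 10.90, 11.12 and 10.93 with palmitic, oleic and linoleic acid, so that oleic acid was the highest by 0.23 over the control. Next came Npc1 (0.11), Npc2 (0.11), Smpd1 (0.10) and Glb1 (0.10), and the lowest were Lamp2 (-0.09) and Ctsf (-0.09).

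A list of 26 other lysosomal hydrolases, of which 22 were measured, lay the same way. With oleic acid 19 of the 22 were above the control, beside 55.3% of kept genes, with a median of 0.09. Beside 4.02% and 2.53% of kept genes, 1 of the 22 was at least 1.2-fold higher and 0 lower. This was Pla2g15, which codes for a lysosomal phospholipase, at log2 9.88 in the control array and 10.17, 10.35 and 9.94 with palmitic, oleic and linoleic acid. Siae, which codes for a sialic acid esterase, followed with 0.26, and Galc (-0.05) and Asah1 (-0.05) were the lowest. Palmitic acid gave these 22 genes a median of 0.01, with 2 at least 1.2-fold higher, Pla2g15 and the acid DNase gene Dnase2a (both 0.29), and 0 lower. Of kept genes 12.1% were higher and 8.72% lower by that size. The lowest with palmitic acid were Galc (-0.16) and Ids (-0.15). The palmitic acid median turns negative, at -0.03, after a repeated quantile normalisation, while the oleic acid median stayed between 0.08 and 0.11 under all scalings tried.

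The comparison with linoleic acid put it for a fatty acid with 2 double bonds. None of the 37 genes was at least 1.2-fold higher or lower than the control, beside 3.23% and 1.09% of kept genes and 0% and 0.336% of those of like brightness. None was so by 1.5-fold, beside 0.0358% of kept genes each way and 0% of those of like brightness. The median was 0.0029, with 20 of 37 above 0, beside 0.04 and 65.2% of kept genes. The largest differences were those of Man2b1 (0.11), which codes for a mannosidase, and Clcn7 (0.11), and in the other direction Ppt1 (-0.15) and Ctsh (-0.11). The 22 other hydrolases had a median of 0.04, which turns to -0.01 after a repeated quantile normalisation, with Naglu (0.19) and Ids (0.15) the highest and Galc (-0.20) the lowest.

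The acids were set against each other at the same dose and time in 3 pairs, which with the control comparisons makes 6 pairs that share arrays. No interval of any difference can be had. Between palmitic and oleic acid, which differ in chain length and by a double bond, palmitic acid was at least 1.2-fold higher for 2 of 37 genes, beside 13% of kept genes and 9.41% of those of like brightness. These were Atp6v1h (0.54) and Atp6v1a (0.30). Ctsc (-0.29) was the gene at least 1.2-fold lower, beside 11.4% and 6.89%. None reached 1.5-fold, beside 1.82% higher and 1.66% lower among kept genes and 1.01% and 0.504% among those of like brightness. Of the 37 genes 16 were above 0, beside 45.9% of kept genes. The 6 proton pump genes among the 37 had a median of 0.20 in this pair. The 12 other measured subunits had a median of 0.02, with 6 above 0, which turns to -0.00064 after a repeated quantile normalisation. All 18 pump genes together had a median of 0.14, and the 8 V0 genes one of -0.02. The lipid-handling genes had a median of -0.04, with 6 of 7 lower with palmitic acid and Npc1 (0.22) higher. Scarb2 (-0.22) and Smpd1 (-0.21) were the next lowest after Ctsc.

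Between palmitic and linoleic acid, palmitic acid was at least 1.2-fold higher for 3 of 37 genes, beside 8.41% of kept genes and 5.38% of those of like brightness, namely Atp6v1h (0.41), Atp6v0d2 (0.31) and Npc1 (0.27). Ctsc (-0.36) was lower, beside 10.8% and 7.56%. None reached 1.5-fold, beside 1.58% higher and 2.01% lower among kept genes and 0.672% and 1.18% among those of like brightness. Of the 37 genes 21 were above 0, beside 42.5% of kept genes. The median of the 6 proton pump genes among the 37 was 0.24. That of the 12 other measured subunits was 0.055, with 10 above 0, and that of all 18 pump genes was 0.06. Linoleic acid has 1 double bond more than oleic acid on a chain of equal length. In this pair 0 of 37 genes were at least 1.2-fold higher or lower, beside 7.14% and 4.16% of kept genes and 4.37% and 1.18% of those of like brightness. None reached 1.5-fold, beside 0.707% and 0.34% of kept genes and 0.168% and 0.336% of those of like brightness. The median was -0.02, with 13 of 37 above 0, beside 55.3% of kept genes, and 24 lower with linoleic acid. All 7 lipid-handling genes were lower with linoleic acid, from Lipa at -0.13 to Grn at -0.0048. Scarb2 (-0.19), Ctsh (-0.17) and Neu1 (-0.16) were the lowest and Clcn7 (0.17) the highest.

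**Figure D4:**
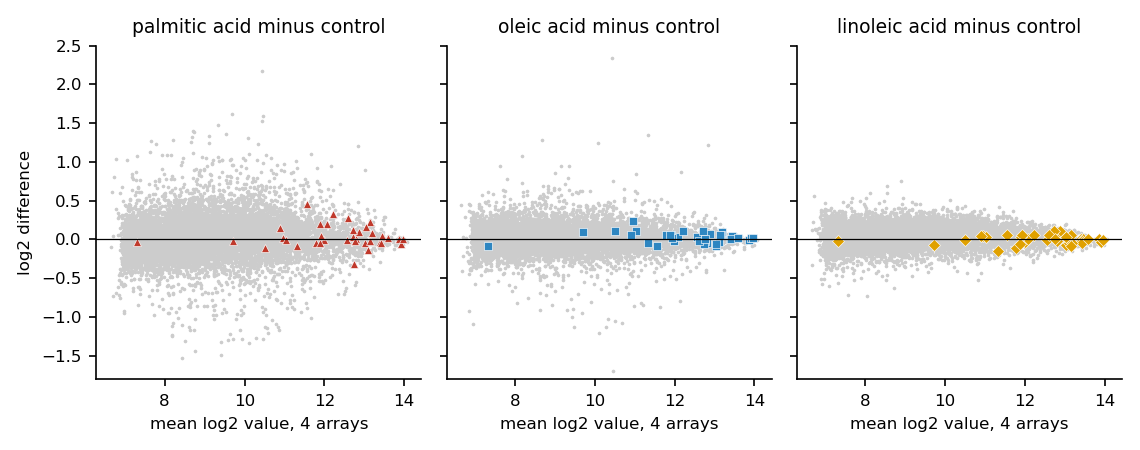
Difference in log2 value from the control against the mean log2 value over the 4 arrays for 11174 kept genes (grey) and the 37 lysosomal genes (coloured), 1 panel per fatty acid. Lysosomal genes lie at the bright end, where all genes spread less, and the palmitic acid panel holds the widest spread.

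The spread of the differences went with brightness. With palmitic acid the robust SD over kept genes (from the median absolute deviation) was 0.21 at a mean between log2 10 and 12, and 0.08 at or above 13. Of kept genes 15.7% were at least 1.2-fold higher in the first range and 4.58% in the second. Among lysosomal genes, 1 of 11 in the first range and 0 of 14 in the second were. Between log2 12 and 13, 2 of 10 were, beside 7.19% of kept genes. A small difference of a bright probe such as that of Ctsb or Psap thus does not show that its RNA was at the same level.

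Genes that control or surround the lysosome were read from lists too. Of the MiT/TFE factors, Tfeb was at log2 8.66 in the control array and 8.37, 8.64 and 8.69 with palmitic, oleic and linoleic acid, and Tfe3 at 10.90, 10.62, 10.91 and 11.04. Both were lowest with palmitic acid, by -0.29 and -0.28 from the control. Mitf was at 9.01, 8.82, 8.54 and 8.73, below the control with every acid, and its relative Tfec at 11.93, 11.46, 11.42 and 12.15. Oleic acid was thus lowest for Mitf and Tfec. These are RNA levels, while the activity of TFEB and TFE3 is known to be set largely by their movement to the nucleus.

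With the nutrient-sensing genes at the lysosomal surface these made a list of 15, all kept. With palmitic acid 5 were at least 1.2-fold higher and 4 lower, beside 12.1% and 8.72% of kept genes. At least 1.5-fold higher were 2, beside 2.17% of kept genes. These 2 were Flcn (0.65) and Fnip2 (0.96), which code for partners in the complex that acts on the Rag GTPases. Fnip1 (0.58) lay just inside 1.5-fold, and Rragc (0.37) and Rraga (0.34), which code for Rag GTPases, were the others higher, all 3 named after their values were seen. The lower ones were Tfeb, Tfe3, Tfec and Lamtor4 (-0.36), the last also named after its values were seen. With oleic acid 0 were at least 1.2-fold higher and 2 lower, Mitf and Tfec, beside 4.02% and 2.53% of kept genes. With linoleic acid 0 were higher and 1 lower, Mitf, beside 3.23% and 1.09%.

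Genes of lysosomal tethering and positioning were a list of 15, with 13 measured. With palmitic acid 5 were at least 1.2-fold higher and 2 lower, beside 12.1% and 8.72% of kept genes, with a median of 0.21. Plekhm1, which codes for an adaptor between Rab7 and the tethering complex, was at log2 9.58 in the control array and 10.63, 9.84 and 9.84 with palmitic, oleic and linoleic acid, and was the gene beyond 1.5-fold, beside 2.17% of kept genes. The others higher were Vps18 (0.54), Plekhm2 (0.47), Vps33a (0.38) and Vps11 (0.33), and the lower ones Borcs6 (-0.37) and Bloc1s1 (-0.30), all named after their values were seen. Linoleic acid gave this list a median of 0.14, which was 0.07 after a repeated quantile normalisation and 0.08 with differences centred on genes of like brightness. It had 1 gene at least 1.2-fold higher, Plekhm2 (0.32), beside 3.23% of kept genes. Oleic acid gave a median of 0.05, with 0 genes higher or lower by 1.2-fold, beside 4.02% and 2.53% of kept genes.

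Of 21 other lysosomal membrane proteins and transporters 19 were measured. With palmitic acid 16 were above the control, beside 50.1% of kept genes, with a median of 0.07. Of the 19 genes 4 were at least 1.2-fold and 2 at least 1.5-fold higher, beside 12.1% and 2.17% of kept genes, and 0 were lower by 1.2-fold, beside 8.72%. Slc29a3, which codes for a lysosomal nucleoside transporter, was at log2 11.28 in the control array and 12.39, 11.61 and 11.39 with palmitic, oleic and linoleic acid. Tpcn2, which codes for a lysosomal cation channel, was at 10.35, 11.20, 10.84 and 10.49. Both had the same order of arrays, palmitic acid first, then oleic and linoleic acid, with the control lowest. Ctns (0.51), which codes for the cystine exporter, and Mcoln2 (0.33) were the others at least 1.2-fold higher with palmitic acid, named after their values were seen. Slc29a3 and Tpcn2 were the genes at least 1.2-fold higher with oleic acid in this list, beside 4.02% of kept genes. With linoleic acid 0 were so, beside 3.23%.

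**Figure D5:**
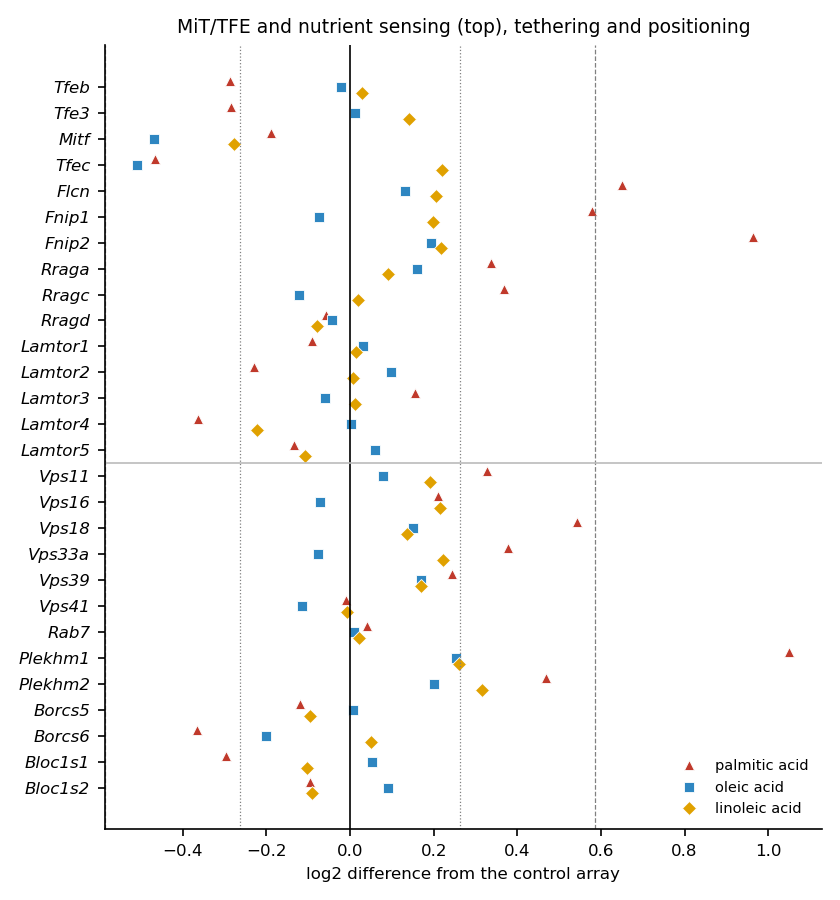
Difference in log2 value from the control array for 15 MiT/TFE and nutrient-sensing genes (top) and 13 tethering and positioning genes (bottom), with palmitic acid (triangles), oleic acid (squares) and linoleic acid (diamonds), 1 array each; dotted and dashed lines mark 1.2-fold and 1.5-fold. Plekhm1, Fnip2 and Flcn lie beyond 1.5-fold with palmitic acid, and Tfeb and Tfe3 lie to the left with palmitic acid alone.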

How the data were processed

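Per the submitters' processing notes, the authors made the deposited log2 values with RMA, which corrects background, normalises the arrays jointly and summarises probes. Neither its version and summary level nor a genome build is given in the sources used here. That values are log2 follows from their range. The table holds 35556 probes, of which 21789 have exactly 1 gene in the platform annotation. Their means per gene gave 19938 genes. The filter and folds are given in the text. Differences are between log2 values of 2 arrays. The number of arrays limits the precision. Symbols were checked by Entrez ID against RefSeq (GRCm38.p6), and 0 needed an update. The table of promoter sequences was checked for strand by the place of TATAAA. The members and lists were chosen with earlier results of these data known. Named were all 37 genes, list genes beyond 1.5-fold against the control or otherwise the 2 largest differences each way, and the 4 MiT/TFE factors. List genes without a probe of 1 gene are not analysed here. Alternatives were other scalings, filters and the brightest probe. The steps were tested on simulated data with Python 3.11.15 and pandas 2.3.3.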

Additional observations from a re-analysis of the deposited data

How the results depend on the processing

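The counts and medians over the 37 genes were recomputed with each array centred on its median, a repeated quantile normalisation, differences centred on genes of like brightness, 3 other filters and the brightest probe. Of the recomputed counts and medians, 230 stayed within 1.5 times the count or 0.05 of the median and 4 did not. Differences of single genes were followed for Lamp1, Lipa, Ctsc, Ctsd, Ctsl, Mcoln1, Npc1 and the 6 proton pump genes. The settings were the 3 scalings and the brightest probe. Differences of at least 1.2-fold counted as unchanged if they stayed so, and others if they moved by less than 0.05. By this rule 296 were unchanged, 13 moved further and 3 newly reached 1.2-fold. All 13 were between linoleic and oleic acid with each array centred on its median. With each array centred on its median, 5 genes in place of 3 were at least 1.2-fold higher with palmitic than with linoleic acid, Atp6v0d1 (0.31) and Atp6v1a (0.27) being added. Atp6v0d1 also reached it (0.27) with differences centred on genes of like brightness. With each array centred, the median of linoleic minus oleic acid moved to -0.077 for the 37 genes and to -0.059 for the 18 proton pump genes, the latter result added after the data were seen. The median of all kept genes moved alike, from 0.02 to -0.04, and the share of kept genes above 0 printed for that pair is that of the deposited scale. With differences centred on genes of like brightness, 3 genes in place of 1 were at least 1.2-fold lower with palmitic than with oleic acid. Each of the 37 genes has 1 probe, so the brightest probe gives the same values for them. The 3 other filters keep all 37 genes, except that the strictest drops Ctsf. Only the 3 scalings could thus move the counts over the 37 genes. Many of the 230 results that stayed, and of the 296 unchanged single differences, were fixed in advance. No paired analysis was possible because each group has 1 array.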

Other observations

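Galectins and the lysosomal damage response were a list of 8 genes, of which 7 were kept. With palmitic acid 6 of the 7 were above the control, beside 50.1% of kept genes, with a median of 0.18. Beside 12.1% and 8.72% of kept genes, 1 of the 7 was at least 1.2-fold higher and 0 lower. This was Trim16, a dim gene that codes for a ubiquitin ligase of damaged organelles, at log2 7.02 in the control and 7.29 with palmitic acid. Vcp, which codes for a segregase that extracts proteins from membranes, followed with 0.22, and the galectin genes Lgals3 (0.04) and Lgals1 (-0.11) were the lowest. With oleic acid Lgals9 was the highest (0.23) and Vcp the lowest (-0.19). Of 10 genes of lysosomal enzyme sorting 9 were measured, with a palmitic acid median of 0.11, which was 0.05 after a repeated quantile normalisation and 0.04 with differences centred on genes of like brightness. Gga2, which codes for a sorting adaptor at the trans-Golgi, was the gene at least 1.2-fold higher, by 0.40, beside 12.1% of kept genes. By that fold 0 were lower, beside 8.72%.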
